A study of Mus musculus with 12 samples.

Results

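The genes described here are 10 genes of the oligodendrocyte lineage, chosen by symbol from the 57132 features of a count table of mouse striatum. They comprise the transcription factors Olig1, Olig2, Sox10, Nkx2-2 and Myrf, and 5 genes of the precursor cells, Pdgfra, Cspg4, Gpr17, Vcan and C1ql1. The libraries carry the labels of 6 C57Bl/6 mice with a knockout of trace amine-associated receptor 5 (TAAR5-KO) and 6 WT littermates of the same age, 10 months. The study used 3 males and 3 females per genotype, but no library is tied to a sex or an animal, and the allele of the knockout is not described in the sources used here. The tissue was what remained of a coronal forebrain slice after removal of the cortex, and both genotypes share that dissection. The question was whether expression of the lineage genes differed between the genotypes.

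Oligodendrocytes, the myelinating cells of the brain, arise from precursor cells that persist and divide in the adult striatum. The precursors carry the receptor Pdgfra and the proteoglycan Cspg4, also called NG2, on their surface. Olig2 and Sox10 are kept through the whole lineage, Nkx2-2 acts around the onset of differentiation, Gpr17 marks the committed precursors in between, and Myrf switches on the myelin genes.

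The libraries, named NK1 to NK6 (labelled TAAR5-KO) and NK7 to NK12 (labelled WT), differed in depth and in ribosomal RNA. Features of ribosomal RNA took 64.3% to 88.1% of the counts of a library, and between 1819907 and 6399188 counts per library lay outside them. The share was 5.22 percentage points higher in libraries labelled TAAR5-KO (two-sided exact permutation p = 0.312), and the counts outside it had an exact permutation p of 0.976. The TMM factors, which scale libraries so that most genes do not differ, ran from 0.375 to 2.46. Taar5 itself had 1 to 6 counts in the libraries labelled TAAR5-KO and 0 to 2 in those labelled WT. Only NK6, with 6, was above 3 counts, the floor used here for a count of 0. The medians were 2 counts in libraries labelled TAAR5-KO and 0 in those labelled WT, so Taar5 was higher under the knockout label. These counts do not bear out the labels and are too low to check any 1 library. Every direction here follows the labels only. Between libraries of the same label, counts differed beyond sampling noise in all 30 pairs, and each library was kept as 1 sample. The labels number the animals but name no batch. Markers of striatal projection neurons (8 genes) were counted in every library, as the tissue label would have it, and so were the 14 markers of mature oligodendrocytes.

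Levels are given as CPM, the share of a library's counts on the TMM scale, and fold changes as log2 of TAAR5-KO over WT. Of the 57132 features, 13902 had at least 0.5 CPM on total counts in at least 3 libraries and were tested, all 10 lineage genes among them. Nkx2-2 reached that minimum in 3 libraries labelled TAAR5-KO and 5 labelled WT, C1ql1 in 3 and 6, Cspg4 in 4 and 5, and the other 7 genes in all. The likelihood ratio test of edgeR at an adjusted p under 0.1 called 1.65% of all features, and 0.691% as lower in libraries labelled TAAR5-KO. Among the lineage genes it called 1 of 10, Olig1, which fell. The study lists Olig1 as downregulated in TAAR5-KO from these same data, so its call here is not independent of that result. The quasi-likelihood test, which called 0.453% of all features, also called Olig1 alone of the 10. DESeq2 gave an adjusted p to 6893 of the features, called 2.57% of those, and called Olig1 alone of the 7 lineage genes among them. At an unadjusted p under 0.05, 4 of the 10 were lower and 0 higher, against 5.51% of all features lower. The median log2 fold change of the 10 genes was −0.25, against −0.0059 over all features tested, and 9 of the 10 were below 0, against 51.1% of all features. With the GC trend of each library taken out, the median of the 10 genes was −0.13 and 7 of the 10 were below 0, against a median of 0.0055 over all features.

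Olig1 encodes a basic helix-loop-helix factor of precursors and oligodendrocytes with a part in differentiation and remyelination. Olig2 encodes its closest relative, the factor that specifies the lineage. The genes lie side by side on chromosome 16 of GRCm39, both on the plus strand. Olig2 (ENSMUSG00000039830.10) spans 91022345 to 91025565 in 2 exon blocks, and Olig1 (ENSMUSG00000046160.7) spans 91066660 to 91068821 in a single exon, 41.1 kb downstream. They were the only features tested among the 11 within 100 kb of the pair. The 250 bases before each annotated start are shown because of these neighbours 1 was called and the other was not. That does not establish a difference between the 2 genes. Their count ratio, compared directly, did not pass the correction (exact permutation p adjusted over the 3 ratios 0.104). Capitals mark CCAAT or its reverse complement ATTGG, letters chosen after the sequences were read.
Olig1, chr16:91066410-91066659, plus strand: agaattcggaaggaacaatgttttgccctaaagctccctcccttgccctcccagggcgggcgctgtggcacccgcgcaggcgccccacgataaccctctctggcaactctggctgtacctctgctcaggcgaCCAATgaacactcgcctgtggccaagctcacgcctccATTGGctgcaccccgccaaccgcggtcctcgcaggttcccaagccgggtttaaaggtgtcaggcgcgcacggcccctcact
Olig2, chr16:91022095-91022344, plus strand: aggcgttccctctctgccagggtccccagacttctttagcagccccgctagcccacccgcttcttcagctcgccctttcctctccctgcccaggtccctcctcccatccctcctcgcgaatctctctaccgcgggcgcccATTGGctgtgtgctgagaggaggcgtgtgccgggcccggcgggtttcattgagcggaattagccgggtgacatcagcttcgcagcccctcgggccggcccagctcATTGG

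Both windows held 2 matches to CCAAT on either strand, and 36.4% of the 21691 windows of protein-coding features held at least 1. Neither window held the E-box letters CANNTG, which helix-loop-helix factors bind and which 63.9% of the windows held. The SOX letters AACAAT were found once before Olig1 and not before Olig2 (9.28% of windows), and ACAAAG before neither (15.6%). GC content was 63.6% before Olig1 and 66.0% before Olig2, with 18 CG dinucleotides each, against medians of 54.0% and 8. These are matches of letters, not sites of binding.

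Olig1 was counted at 2.92 CPM in the lowest, 4.15 CPM at the median and 5.03 CPM in the highest library labelled TAAR5-KO. In the libraries labelled WT the lowest, median and highest levels were 5.45, 5.93 and 7.59 CPM. Every library labelled TAAR5-KO therefore lay below every library labelled WT, a separation that 0.388% of all features showed in this direction and 1.01% in either. None of the other 9 genes showed it. The means were 4.14 ± 0.739 CPM and 6.14 ± 0.760 CPM (SD, n = 6 each). The fitted log2 fold change was −0.51 (SE 0.12, 95% interval −0.75 to −0.26), or 29.7% less, with an adjusted p of 0.0118 in the likelihood ratio test of edgeR. The quasi-likelihood test gave an adjusted p of 0.0882 and DESeq2 0.0176. In bulk tissue, fewer cells of a type and less RNA per cell cannot be told apart.

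The call of Olig1 ended in 3 settings. It was −0.37 (adjusted p = 0.190) once the GC trend of each library had been taken out, −0.92 (adjusted p = 0.700) with library size as the only scaling, where all features shifted by a median of −0.49, and −0.32 (adjusted p = 0.423) without the 5 libraries with over 85% ribosomal RNA, NK1, NK2 and NK3 labelled TAAR5-KO and NK9 and NK10 labelled WT. The exon of Olig1 is 61.1% G and C, more than that of 98.3% of the features tested. Within the 5 libraries of over 85% ribosomal RNA, Olig1 was at 2.92 to 3.98 CPM in the 3 labelled TAAR5-KO and at 5.69 and 7.59 CPM in the 2 labelled WT. Its call stood in each of the 12 fits without 1 library, with adjusted p from 0.00380 to 0.0525, and in the fit that included the share of ribosomal RNA (−0.49, adjusted p = 0.0631). Of its exon, 157 bases overlap Gm15966 on the opposite strand, which had at most 2 counts in a library.

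**Figure D1:**
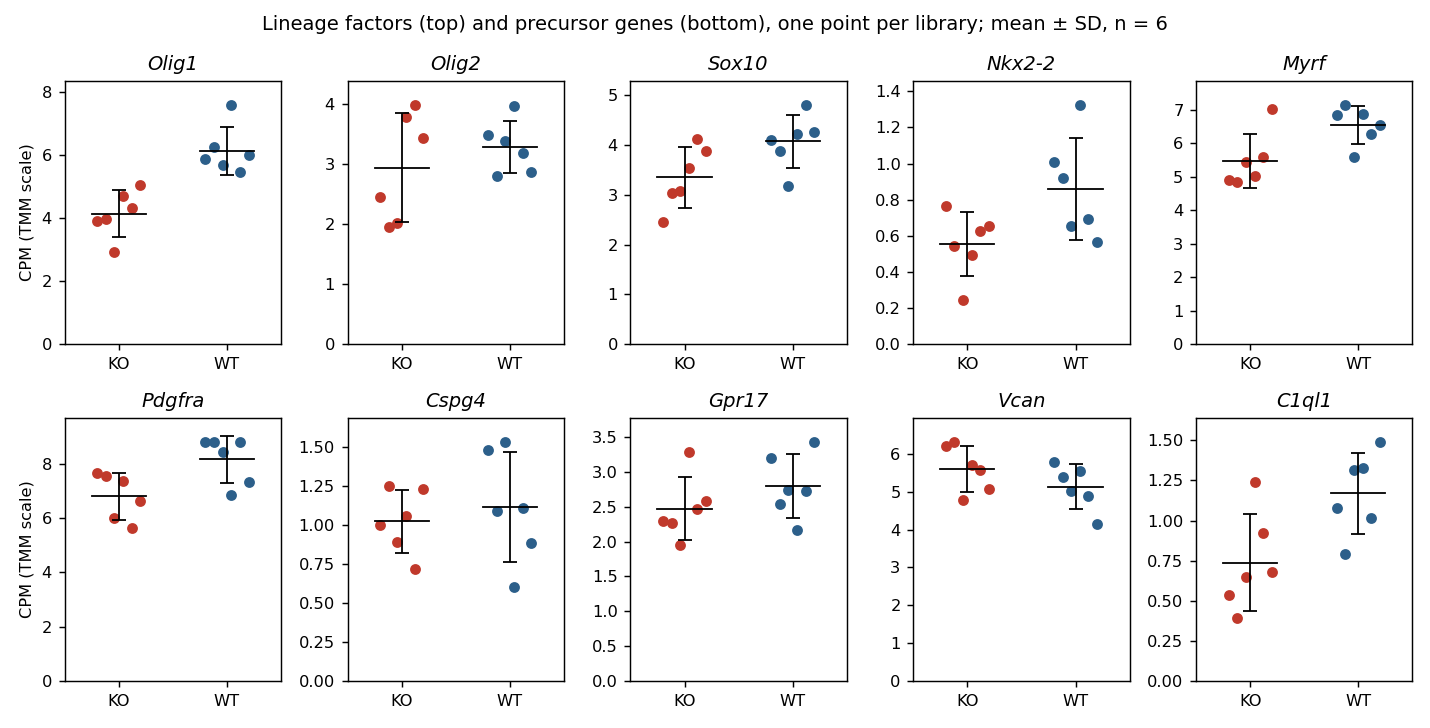
CPM on the TMM scale (vertical axes, from 0) of the 10 lineage genes in each library, 6 labelled KO in red and 6 labelled WT in blue, with mean and SD in black. For Olig1, with 5.03 CPM as the highest KO and 5.45 CPM as the lowest WT library, the groups do not overlap, as they do for the other 9 genes.

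Olig2 did not show this separation. Its levels were 1.95, 2.95 and 3.99 CPM (lowest, median, highest) in libraries labelled TAAR5-KO and 2.80, 3.29 and 3.97 CPM in those labelled WT. The libraries labelled TAAR5-KO fell into a low trio, NK1 to NK3 at 1.95 to 2.45 CPM, and a high trio, NK4 to NK6 at 3.44 to 3.99 CPM, whereas all libraries labelled WT lay between 2.80 and 3.97 CPM. Its log2 fold change was −0.084 (SE 0.17, 95% interval −0.43 to 0.26, adjusted p = 0.906). The low trio had 86.6% to 88.1% ribosomal RNA, and NK9 and NK10, labelled WT with 87.4% and 85.6%, had 3.39 and 3.97 CPM of Olig2. In a fit that included the share of ribosomal RNA, the log2 fold change of Olig2 was −0.015 (adjusted p = 0.992). Without the 5 libraries of over 85% ribosomal RNA the sign of Olig2 turned, to 0.27 (adjusted p = 0.642).

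**Figure D2:**
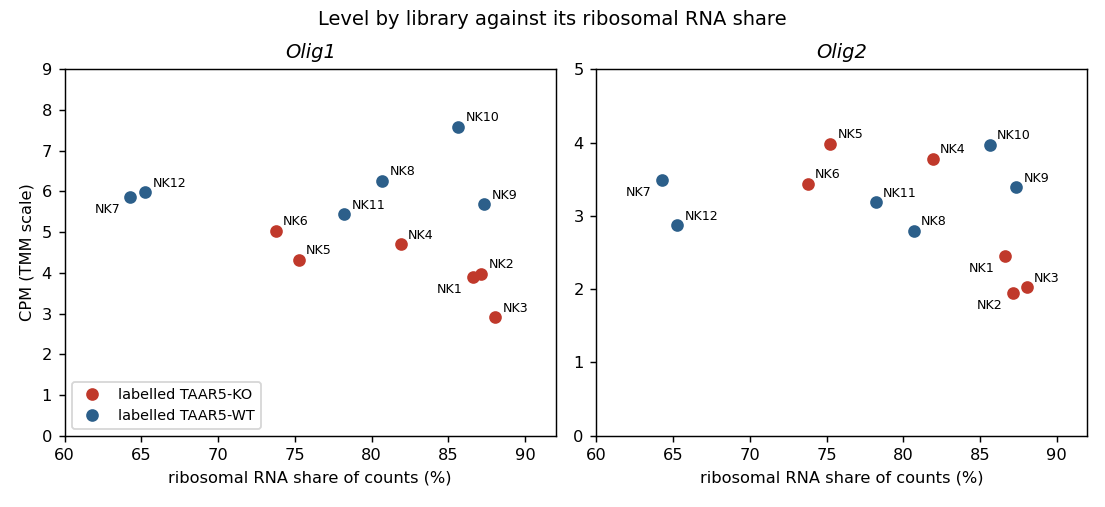
CPM on the TMM scale of Olig1 (left) and Olig2 (right) in each library, against the percentage of its counts on ribosomal RNA features; red points are labelled TAAR5-KO, blue points WT. NK1, NK2 and NK3 sit at the high end of the ribosomal RNA share and hold the lowest levels of both genes, while NK9 and NK10 have like shares and hold 5.69 and 7.59 CPM of Olig1.

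Sox10, which cooperates with the Olig factors and keeps the lineage identity, was at 2.45, 3.31 and 4.11 CPM in libraries labelled TAAR5-KO and at 3.17, 4.16 and 4.801 CPM in those labelled WT. All 6 libraries labelled TAAR5-KO were below the WT median, but the groups overlapped. The log2 fold change of −0.26 (SE 0.14, 95% interval −0.52 to 0.0073) did not pass the test (adjusted p = 0.433). It was −0.11 with the GC trend taken out and −0.13 without the 5 libraries of over 85% ribosomal RNA, and the exons of Sox10 are 62.2% G and C. Sox10 lies on the minus strand of chromosome 15 from 79039108 to 79049440.

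Nkx2-2, a homeodomain factor of differentiating precursors, was the faintest of the factors, with 3 to 28 counts per library. It was at 0.243, 0.588 and 0.766 CPM in libraries labelled TAAR5-KO and at 0.565, 0.805 and 1.32 CPM in those labelled WT. The mean was lower in libraries labelled TAAR5-KO, 0.555 ± 0.179 against 0.861 ± 0.282 CPM (SD, n = 6 each), and the groups overlapped. Its log2 fold change of −0.50 was close in size to that of Olig1, but the SE was 0.27 and the adjusted p 0.458. The antisense gene Nkx2-2os shares 278 of its exon bases and had 1 to 8 counts, and without a known strand setting reads of the pair cannot be told apart.

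Myrf, the membrane-bound regulator of myelin genes, was at 4.84, 5.22 and 7.01 CPM in libraries labelled TAAR5-KO and at 5.58, 6.69 and 7.14 CPM in those labelled WT. NK6, labelled TAAR5-KO, stood above the others of its label and above 5 libraries labelled WT. On the log2 scale Myrf differed by −0.24 (SE 0.12, 95% interval −0.47 to −0.0039, adjusted p = 0.407). Summed over the 5 factors, the level ran from 13.7 to 20.03 CPM in libraries labelled TAAR5-KO and from 18.5 to 24.0 CPM in those labelled WT.

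Among the precursor genes, none of 5 passed the likelihood ratio or the quasi-likelihood test of edgeR, nor did any of the 3 that DESeq2 gave an adjusted p. An unadjusted p under 0.05 was found for 2, both lower, against 5.51% of all features lower. Pdgfra encodes the receptor for platelet-derived growth factor A, the chief mitogen of the precursors. It was at 5.62, 7.01 and 7.66 CPM in libraries labelled TAAR5-KO and at 6.86, 8.62 and 8.82 CPM in those labelled WT. All 6 libraries labelled TAAR5-KO were below the WT median, and NK10 and NK12, labelled WT, lay among them. Pdgfra had a log2 fold change of −0.28 (SE 0.11, 95% interval −0.50 to −0.068), with an unadjusted p of 0.00981 and an adjusted p of 0.221 in the likelihood ratio test of edgeR. After removal of the GC trend it was −0.25 (adjusted p = 0.475), the exons of Pdgfra being 49.0% G and C, near the median of 48.4% over the features tested.

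C1ql1, a secreted C1q-like protein made by precursors in the adult brain, had the largest fold change of the 10 genes in the likelihood ratio fit and few counts, 5 to 66 per library. It was at 0.390, 0.663 and 1.24 CPM in libraries labelled TAAR5-KO and at 0.793, 1.20 and 1.49 CPM in those labelled WT. NK4, labelled TAAR5-KO, reached 1.24 CPM, within the WT range, whereas 4 of its group lay below all libraries labelled WT. C1ql1 had a log2 fold change of −0.62 (SE 0.26, 95% interval −1.12 to −0.12, adjusted p = 0.263 in the likelihood ratio test). Without NK4 it was −0.79 and passed the threshold (adjusted p = 0.0824), in a fit that called 414 features against 229 with all libraries. Without the 5 libraries of over 85% ribosomal RNA it was −0.31 (adjusted p = 0.851). DESeq2 gave no adjusted p for C1ql1, Nkx2-2 and Cspg4, which its filter on low counts removed.

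Gpr17, an orphan receptor of committed precursors that restrains their maturation, was at 1.94, 2.39 and 3.28 CPM in libraries labelled TAAR5-KO and at 2.17, 2.73 and 3.43 CPM in those labelled WT. The groups overlapped over most of their range. With an adjusted p of 0.605, Gpr17 had a log2 fold change of −0.21 (SE 0.15, 95% interval −0.51 to 0.083). Gpr17 shares 188 exon bases with Lims2 on the opposite strand, which had 1 to 26 counts per library.

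Cspg4 and Vcan encode large chondroitin sulfate proteoglycans, NG2 at the cell surface and versican in the matrix. Cspg4, with 5 to 47 counts, was at 0.713, 1.02 and 1.25 CPM in libraries labelled TAAR5-KO and at 0.602, 1.097 and 1.53 CPM in those labelled WT, so that the WT range enclosed the other. Its log2 fold change was −0.12 (SE 0.23, 95% interval −0.57 to 0.33, adjusted p = 0.896). Vcan was the one gene of the 10 above 0, at 4.78, 5.64 and 6.32 CPM against 4.14, 5.21 and 5.80 CPM in libraries labelled WT. For Vcan the log2 fold change was 0.13 (SE 0.12, 95% interval −0.10 to 0.37, adjusted p = 0.713), and −0.37 with library size as the only scaling, on which all features shifted down by 0.49. Summed over the 5 precursor genes, the level ran from 14.3 to 18.6 CPM in libraries labelled TAAR5-KO and from 16.5 to 20.4 CPM in those labelled WT.

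**Figure D3:**
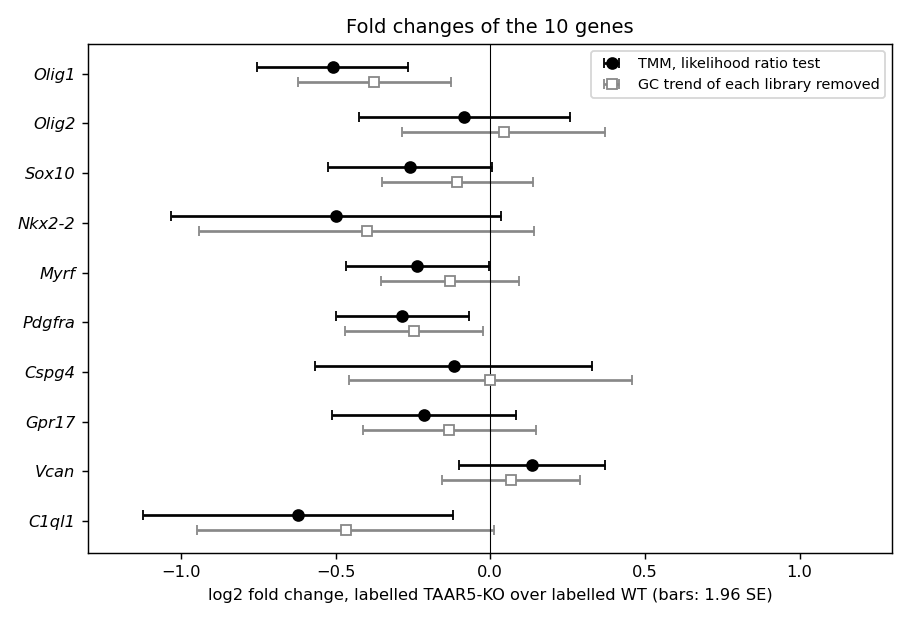
Log2 fold change (TAAR5-KO over WT, by label) of each lineage gene on the horizontal axis, with 95% intervals as bars, from the likelihood ratio fit (black) and without each library's GC trend (grey squares). Olig1 moves from −0.51 to −0.37 and Pdgfra from −0.28 to −0.25, while Olig2 and Cspg4 lie at 0.043 and 0.00038 after the removal.

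Ratios of counts within a library need no scaling between libraries, but the GC trend of each library was not taken out of them. The exons of Olig1 and Sox10 are 61.1% and 62.2% G and C, those of Olig2 58.5% and those of Pdgfra 49.0%. With 0.5 added to each count, Olig1 had 1.08 to 2.02 counts per count of Olig2 in libraries labelled TAAR5-KO and 1.67 to 2.23 in those labelled WT, and 5 of the 6 libraries labelled TAAR5-KO were below all labelled WT, the exception being NK2. The mean log2 ratio was 0.53 ± 0.31 against 0.90 ± 0.18 (SD, n = 6 each). The difference was −0.37 (two-sided exact permutation p = 0.0346, adjusted over the 3 ratios 0.104, smallest possible p 0.00216), so it did not pass the correction. Without NK4, NK5, NK8, NK10 or NK12 the unadjusted exact p was 0.0584 to 0.0714. Without the 5 libraries of over 85% ribosomal RNA the difference was −0.61 (exact permutation p = 0.0286). That p is the smallest the remaining libraries allow and is not adjusted over the 3 ratios. Against Sox10 the log2 ratio of Olig1 was 0.30 ± 0.27 in libraries labelled TAAR5-KO and 0.59 ± 0.25 in those labelled WT, a difference of −0.29 (exact permutation p = 0.0909, adjusted 0.136). With 1 library left out at a time, its unadjusted exact p ran from 0.0281 (without NK11) to 0.184 (without NK3). It was under 0.05 only without NK11 and without NK1 (0.0411). Without the 5 libraries the difference was −0.18 (exact permutation p = 0.286).

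The ratio of the precursor receptor Pdgfra to Olig2 spread more widely between libraries labelled TAAR5-KO, from 1.41 to 3.82, than between those labelled WT, from 1.72 to 3.13. The mean log2 ratios of 1.25 ± 0.54 and 1.31 ± 0.29 (SD, n = 6 each) differed by −0.060 (two-sided exact permutation p = 0.807, adjusted 0.807). NK1, NK2 and NK3 had the 3 highest ratios of their label, 2.92 to 3.82. Without the 5 libraries of over 85% ribosomal RNA the difference was −0.65 (exact permutation p = 0.0286, the smallest that 3 against 4 libraries allow).

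**Figure D4:**
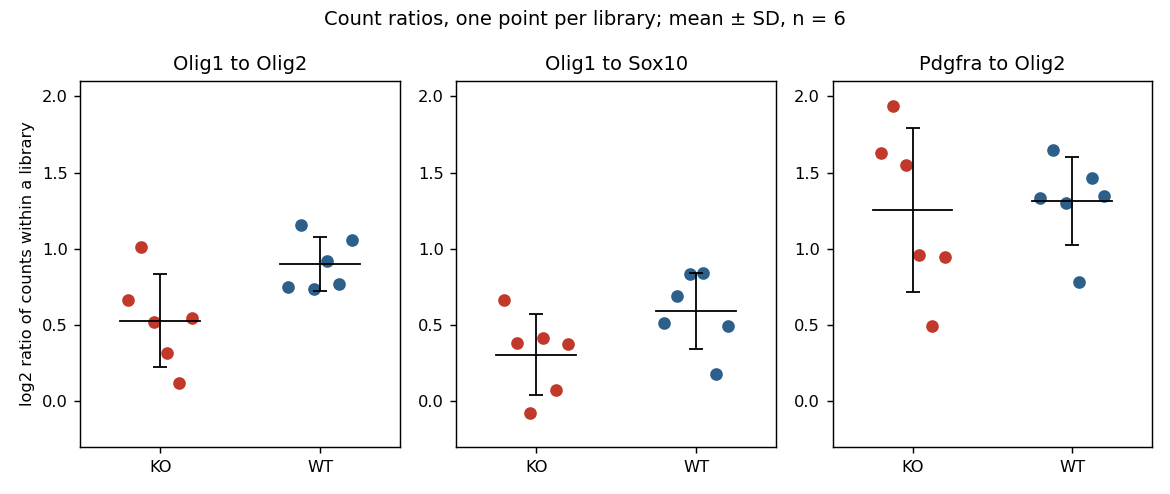
Log2 ratio of counts within each library, for Olig1 to Olig2, Olig1 to Sox10 and Pdgfra to Olig2, with 6 libraries labelled KO in red, 6 labelled WT in blue, and mean and SD in black. The KO mean of Olig1 to Olig2 is 0.53 against 0.90, and that of Pdgfra to Olig2 is 1.25 against 1.31.

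Levels of different genes were compared per kb of exon, merged over all transcripts of a gene and with no correction for GC content. In libraries labelled WT, Olig1 was highest at 2.84 ± 0.352 CPM per kb (SD, n = 6), followed by Sox10 at 1.33 ± 0.175, Olig2 at 1.298 ± 0.172, Pdgfra at 0.816 ± 0.0863, C1ql1 at 0.794 ± 0.172 and Myrf at 0.764 ± 0.0650 CPM per kb. Gpr17 at 0.539 ± 0.0878, Vcan at 0.355 ± 0.0407, Nkx2-2 at 0.299 ± 0.0981 and Cspg4 at 0.0934 ± 0.0296 CPM per kb came last. Olig1 exceeded Sox10 in 6 of 6 libraries of each label, and Olig2 exceeded Pdgfra likewise. Sox10 and Olig2 held this order in 3 of 6 libraries labelled WT, and so did Pdgfra against C1ql1 and C1ql1 against Myrf, so these neighbours did not differ beyond their spread. In libraries labelled TAAR5-KO, Olig1 was still the highest, at 1.92 ± 0.342 CPM per kb.

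Low levels were concentrated in a few libraries. NK3 was among the 3 lowest of the 12 libraries for 8 of the 10 genes, NK2 for 7 and NK1 for 5. NK6, also labelled TAAR5-KO, was among the 3 lowest for 1 gene, and NK7, NK8 and NK9, labelled WT, for 0. The highest libraries were NK10, among the 3 highest for 6 genes, and NK7 for 5, both labelled WT. Summed over all 10 genes, the level ran from 28.0 to 36.2 CPM in libraries labelled TAAR5-KO and from 37.5 to 41.7 CPM in those labelled WT.

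Further genes of the lineage were taken from lists. Of 28 other genes of precursors and committed precursors, 26 were tested, 23 were lower and 3 higher, with a median log2 fold change of −0.15, and 0 passed the likelihood ratio or quasi-likelihood test, or DESeq2 among the 15 it gave an adjusted p. At an unadjusted p under 0.05, 4 were lower (15.4%, against 5.51% of all features) and 0 higher. Of all features, 51.1% had a log2 fold change below 0. The smallest p belonged to Bcas1, a marker of early myelinating cells, with −0.31 (SE 0.11, adjusted p = 0.195), to Cspg5, a neural proteoglycan, with −0.20 (SE 0.086, adjusted p = 0.303), and to Traf4, a signalling adaptor, with −0.66 (SE 0.31, adjusted p = 0.348). Bcas1 was at 22.6 to 37.7 CPM in libraries labelled TAAR5-KO and 34.5 to 39.4 CPM in those labelled WT, and it passed the threshold without NK6. Which cells made the RNA of the genes on this list was not tested.

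Of 33 other transcription and chromatin factors of the lineage, 30 were tested, 17 lower and 13 higher, with a median log2 fold change of −0.040. None passed the likelihood ratio or quasi-likelihood test, or DESeq2 among the 23 it gave an adjusted p. An unadjusted p under 0.05 was found for 3, all lower (10%, against 5.51% of all features). Among them were Sox6, which holds precursors undifferentiated, at −0.29 (SE 0.10, adjusted p = 0.147), and Zfp536, a zinc finger repressor, at −0.33 (SE 0.12, adjusted p = 0.212). Sox6 passed the threshold without NK4 and without NK5, in fits that called 414 and 291 features against 229 with all libraries. It passed in no other alternative. Nkx6-1 and Olig3 had at most 3 counts in any library, the floor used here for a count of 0.

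Of 32 growth factors, ligands and receptors that act on the lineage, 31 were tested, 19 lower and 12 higher, with a median of −0.039, and 0 passed the likelihood ratio or quasi-likelihood test, or DESeq2 among 18. At an unadjusted p under 0.05, 3 were lower (9.68%, against 5.51% of all features) and 0 higher. These were Igf1, a survival factor for oligodendrocytes, at −0.48 (SE 0.19, adjusted p = 0.258), Fgfr1 at −0.24 (SE 0.11, adjusted p = 0.359) and the receptor Notch1 at −0.27 (SE 0.13, adjusted p = 0.379).

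Genes of mature oligodendrocytes, such as those of myelin, formed a further list. Of its 14 genes, 12 were lower and 2 higher, with a median of −0.10, against 51.1% of all features below 0. None passed the likelihood ratio or the quasi-likelihood test, or DESeq2 among 13. An unadjusted p under 0.05 was found for 2, both lower (14.3%, against 5.51% of all features). Their summed level was 485 to 546 CPM in libraries labelled TAAR5-KO and 428 to 613 CPM in those labelled WT, so the WT range enclosed the other. With the GC trend taken out the medians were −0.13 for the 10 lineage genes, −0.10 for the other precursor genes and −0.12 for this list. Whether this list differed from the precursor genes was not tested.

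**Figure D5:**
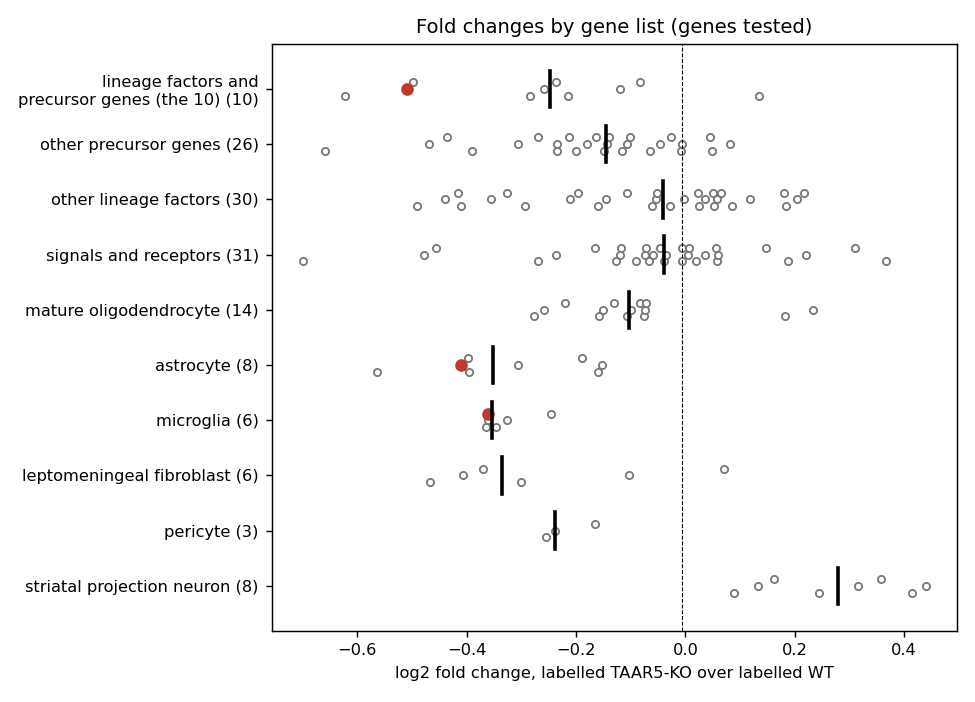
Log2 fold change of each tested gene (points) by list, with the number tested in parentheses; red points passed the likelihood ratio test at an adjusted p under 0.1, black ticks are list medians and the dashed line is the median of all features. The medians are −0.25 for the 10 lineage genes, −0.15 for other precursor genes and −0.10 for mature oligodendrocytes, against 0.28 for projection neurons; with the GC trend taken out the first 3 are −0.13, −0.10 and −0.12.

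Markers of some other cells lay to 1 side, though few passed a test. All 8 astrocyte markers were lower in libraries labelled TAAR5-KO (median −0.35, summed level 230 to 308 CPM against 309 to 350 CPM), and 1 of them, Gja1, passed the likelihood ratio test (−0.41, SE 0.12, adjusted p = 0.0568) but not the quasi-likelihood test (adjusted p = 0.144). All 6 microglia markers were lower (median −0.35, 19.8 to 27.6 CPM against 26.6 to 36.1 CPM), with P2ry12 past the threshold (−0.36, SE 0.11, adjusted p = 0.0773) but not in the quasi-likelihood test (adjusted p = 0.180). All 8 markers of projection neurons were higher (median 0.28, 238 to 303 CPM against 143 to 261 CPM), with 0 past the threshold in the likelihood ratio and quasi-likelihood tests, 1 with DESeq2, and 3 at an unadjusted p under 0.05. An unadjusted p under 0.05 was found for 6 astrocyte and 3 microglia markers, all lower. Of all features, 5.51% were lower at that p, and 11.9% had it in either direction. DESeq2 called 1 astrocyte and 1 microglia marker, of the 8 and 3 it gave an adjusted p, against 2.57% of all features with one. The likelihood ratio test called 1.65% of all features, and 0.691% as lower. With the GC trend taken out the medians were −0.31 for astrocytes, −0.24 for microglia and 0.32 for projection neurons. The part of these cells in the fall of Olig1 was not tested.

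Pdgfra and Vcan are also made by fibroblasts of the brain's coverings, and Cspg4 by pericytes. The 8 fibroblast markers summed to 4.45 to 11.03 CPM in libraries labelled TAAR5-KO and 5.83 to 11.1 CPM in those labelled WT, with 5 of 6 tested lower, 0 past the likelihood ratio or quasi-likelihood test and 0 at an unadjusted p under 0.05. The 6 pericyte markers summed to 6.12 to 8.79 CPM and 6.45 to 10.1 CPM, with 3 of 3 tested lower and the same counts of 0, and Higd1b and Ndufa4l2 had at most 3 counts per library. The part of these cells in the levels of the 3 genes was not tested.

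The features most like a gene across the 12 libraries were those with the smallest root mean square difference of centred log2 CPM. For Olig1 they were Gdf11 (0.12), Acsbg1 (0.12) and Prr14 (0.14), where the profile of Olig1 itself had a root mean square of 0.35. Of these, Acsbg1, an acyl-CoA synthetase, passed the likelihood ratio test (−0.44, SE 0.11, adjusted p = 0.00915), whereas Gdf11 had an adjusted p of 0.109. For Sox10 the nearest was Abca2 at 0.081, a lipid transporter gene, for Gpr17 it was Wwtr1 at 0.086, and for Pdgfra it was Ppp1r26 at 0.11. Olig2 was nearest to Polr2d (0.13) and Itga6 (0.15), and none of the 10 genes was among the 3 nearest of another.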

How the data were processed

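Striatal RNA was measured in 12 libraries, 6 labelled TAAR5-KO and 6 labelled WT. Per the labels and the methods, the authors depleted ribosomal RNA, prepared directional libraries, trimmed the single-end reads with Cutadapt 4.1, aligned them to GRCm39 with STAR 2.7.11b and assigned them to GENCODE M35 genes with featureCounts 2.0.6. The authors deposited raw counts, neither normalized nor pooled, beside merged exon lengths. How strand and multiply mapped reads were handled is not given in the sources used here. Of the table, 12 more count columns were left out.

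Features with at least 0.5 CPM on total counts in at least 3 libraries were tested (R 4.3.3, edgeR 4.0.16) after TMM scaling, by the likelihood ratio test (glmLRT) with genotype as the only term, and called where the p adjusted by Benjamini–Hochberg was under 0.1. The test, filter and threshold are those the study states, and TMM was chosen here. The study reports fewer features tested and fewer called than found here, with more of its calls lower than higher. The cause was not tested. As other tests, edgeR's quasi-likelihood test and DESeq2 1.42.0 were run, and an adjusted p that DESeq2 leaves missing (7009 features) stayed missing. Standard errors came from the same fit, with normal 95% intervals. Ratios of counts within a library, with 0.5 added to each count, were compared by exact permutation (two-sided, 924 assignments). The labels name separate animals, and p-values measure the spread between them.

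Alternatives were other scalings, filters, dispersions and thresholds, removal of per-library trends on gene length or on GC content (loess, span 0.5, GC content of the deposited exons in GRCm39), and leaving out each library. Added after the data were seen were leaving out the 5 libraries with over 85% ribosomal RNA and the ribosomal RNA share as a covariate.

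The text names the 10 member genes, the called genes and the 3 smallest p of each further lineage list (1 gene is not reported here), the 3 features nearest to a member by root mean square difference of centred log2 CPM (prior count 2), and markers where a result turns on them. The members and lists were chosen with earlier results of these data known. Total counts ran from 11269915 to 34824450 per library. The floor for a 0 was 3 counts, which covers counting error only.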

Additional observations from a re-analysis of the deposited data

Results flagged for a closer look

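Of 20 sets of 6 libraries, 1 per gene and label, and 6 sets of ratios, 1 held a library far from the rest by Dixon's test, which chance brings about in 1 of 20. Myrf reached 7.01 CPM in NK6, labelled TAAR5-KO, and its gap to the next library was 0.66 of the range of its label. Without NK6 the log2 fold change of Myrf was −0.34 (adjusted p = 0.108), against −0.24 with it.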

How the results depend on the processing

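Olig1 kept its direction in all 26 alternatives run and its call in 23 of them. The alternative of an adjusted p under 0.05 changed only the threshold, so its direction could not differ from the main fit. The number of called genes among the 10 was 0 with library size as the only scaling, 0 with the GC trend removed and 0 without the 5 libraries of over 85% ribosomal RNA, which also leaves fewer samples, and it was 1 to 2 in the fits without 1 library. The number of all features called was 63 with the quasi-likelihood test, 7 with library size only, 93 without a filter, 108 at an adjusted p under 0.05, 86 with the GC trend removed, 80 without the 5 libraries, 98 with the share of ribosomal RNA in the fit, and 85 to 414 without 1 library (lowest without NK11, highest without NK4). The calls split into 133 higher and 96 lower on the TMM scale and into 0 and 7 with library size only. Counts of other lineage factors and of other precursor genes ran from 0 to 1 without 1 library. The sign of Olig2 turned with the GC trend removed (0.043) and without the 5 libraries (0.27), and its range without 1 library was −0.18 to 0.017. The sign of Cspg4 turned with the GC trend removed (0.00038), with −0.22 to 0.012 without 1 library, and that of Vcan with library size only (−0.37). C1ql1 ran from −0.79 to −0.48 without 1 library. The difference in the log2 ratio of Olig1 to Olig2 ran from −0.47 to −0.29 without 1 library, that of Olig1 to Sox10 from −0.37 to −0.21, and that of Pdgfra to Olig2 from −0.20 to 0.092, with −0.61, −0.18 and −0.65 without the 5 libraries. The fold changes of Sox10, Myrf and Gpr17 were −0.11, −0.13 and −0.13 with the GC trend removed. The causes were not tested. Nkx2-2, Cspg4 and C1ql1 had 3 to 66 counts per library. No paired analysis was possible because the columns carry library numbers that the labels do not tie to animals.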

Other observations

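Markers of 3 further cell groups were summed in each library. Those of choroid plexus and ependyma ran from 2.14 to 459 CPM in libraries labelled TAAR5-KO and from 4.20 to 279 CPM in those labelled WT, and cortical pyramidal markers from 25.3 to 94.0 CPM and from 31.5 to 103 CPM. Endothelial markers summed to 5.84 to 8.18 CPM and 5.401 to 7.26 CPM. None of these 3 lists held a gene past the likelihood ratio or quasi-likelihood threshold, or DESeq2's among the 8 genes it gave an adjusted p, and 0 of their genes had an unadjusted p under 0.05.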
